A study of Mus musculus with 9 samples.

Results

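The genes of 9 granule proteins and lysozymes were examined in mouse bone marrow-derived macrophages (Mϕs): Mpo, Elane, Prtn3 and Ctsg of azurophil granules, Camp, Ngp and Ltf of specific granules, and the lysozymes Lyz1 and Lyz2. Members were the 9 genes of these symbols among the 53379 gene identifiers of the deposited table, matched through the GENCODE M21 annotation, and all 9 were found. Bone marrow cells of wild-type C57BL/6 mice were depleted of red cells and grown for 3 days with CSF-1 at 10 ng/ml, which drives marrow precursors to become Mϕs. For 4 more days, control cells received CSF-1 alone, IL-4 cells CSF-1 with 10 ng/ml IL-4, and IL-6 cells CSF-1 with 100 ng/ml IL-6, as the labels give it. The paper's methods give a higher dose of IL-4, and its legends another dose and time for both cytokines. Each condition had 3 libraries, numbered #1 to #3, from polyadenylated RNA of bulk cultures, and the design text names 3 mice. Whether a number marks a mouse is not stated, so p-values measure the spread between these libraries. No cell was sorted by a marker, and the ages and sexes of the mice are not given.

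Azurophil granules are made first, in promyelocytes, and hold myeloperoxidase with the neutrophil serine proteases. Specific granules follow in myelocytes and metamyelocytes and hold antimicrobial proteins such as lactoferrin and cathelicidin, so the transcripts of both granule classes fade as neutrophils mature while the proteins stay. Lysozyme cleaves the peptidoglycan of bacterial walls. Lyz2 encodes the lysozyme of Mϕs and neutrophils, and Lyz1 is best known from Paneth cells of the small intestine.

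Some members lie side by side. Prtn3 and Elane on chromosome 10 are 3.1 kb apart, Lyz2 and Lyz1 on the same chromosome 5.5 kb apart, and Camp, Ngp and Ltf follow each other on chromosome 9 at gaps of 570.1 and 596.3 kb. Letters of 5 motifs were searched on both strands in the RefSeq promoters of GRCm38.p6, from 250 bases before to 50 bases after each annotated start, with 1 such window used for each member. All 4 azurophil genes and Ltf held GAGGAA, the core bound by PU.1, which 28.3% of all 32851 promoters held. TTGCNNAA, bound by C/EBP factors, was found in Ngp, Ltf and Lyz1 (10.8% of all promoters), and TAACNG, a Myb core, in Mpo and Elane (23.3%). TTC and GAA at 4 bases from each other, the spacing preferred by STAT6, were found in Mpo (6.95%), and at 3 bases, the spacing preferred by STAT3, in Ctsg (8.3%). A match describes letters and not a bound site. The promoters of the 3 serine proteases are shown because these genes differed most from each other in the results, with GAGGAA in capitals and each window ended before the GENCODE transcript start that lies within it, where there is one (chr10:79886062-79886246 and chr10:79879417-79879613, plus strand, and chr14:56102575-56102824, minus strand).
Elane: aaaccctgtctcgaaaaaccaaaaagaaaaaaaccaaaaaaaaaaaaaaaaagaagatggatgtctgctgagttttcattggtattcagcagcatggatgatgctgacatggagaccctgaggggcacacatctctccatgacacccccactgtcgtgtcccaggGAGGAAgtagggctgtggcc
Prtn3: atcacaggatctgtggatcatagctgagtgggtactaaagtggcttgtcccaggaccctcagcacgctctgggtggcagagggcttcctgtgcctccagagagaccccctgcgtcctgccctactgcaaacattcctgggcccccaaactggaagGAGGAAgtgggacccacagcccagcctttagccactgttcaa
Ctsg: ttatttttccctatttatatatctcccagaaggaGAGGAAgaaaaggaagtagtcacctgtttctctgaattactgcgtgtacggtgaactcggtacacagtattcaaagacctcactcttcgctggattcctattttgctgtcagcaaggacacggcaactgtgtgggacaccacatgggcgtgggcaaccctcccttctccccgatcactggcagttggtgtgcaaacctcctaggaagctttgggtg
The Prtn3 window lies upstream of the RefSeq start but inside the GENCODE gene, which also has a more distal start at 79874476. In Elane and Prtn3 the motif began 85 and 95 bases before the RefSeq start, and in Ctsg 216 bases before it.

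The lysozymes are near copies, which bears on how reads could be assigned to them. Their coding sequences of 444 bases differed at 22 positions. Bases 101 to 250 of both are shown, with the 10 positions at which they differ in capitals.
Lyz1: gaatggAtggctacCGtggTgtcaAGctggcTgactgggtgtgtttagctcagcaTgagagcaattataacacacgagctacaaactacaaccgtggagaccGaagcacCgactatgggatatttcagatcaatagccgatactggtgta
Lyz2: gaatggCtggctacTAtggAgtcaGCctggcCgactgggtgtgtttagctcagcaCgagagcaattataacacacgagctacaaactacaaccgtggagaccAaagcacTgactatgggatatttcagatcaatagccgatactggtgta
Of the stretches of 50 bases in Lyz1 transcripts, 16.1% also occur in Lyz2, and of those of 100 bases 2.06%. How shared reads were divided, and whether counting used the strand of the stranded libraries, is not stated. Lyz2 had 197277 to 870563 fragments per library and Lyz1 50 to 1244. Even a small misassigned share of Lyz2 reads could therefore weigh heavily on Lyz1, and the size of that share was not tested. Parts of Mpo and Prtn3, whose exons overlap Gm11505 and Plppr3 on the opposite strand by 512 and 159 bases, are uncertain too.

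Depth read back from the values was 29988160 to 39909571 fragments per library. Libraries also divided by the transcripts of other genes, against which Lyz1 is set further on. Genes of Paneth and goblet cells, which line the gut, had 1012 to 1302 fragments in the 3 control libraries and in IL-4 #1. In the remaining 5 libraries they had 3 to 8 fragments. The division runs across the conditions (all controls on one side, all IL-6 libraries on the other), so IL-6 against control cannot be told apart from it. With this library set as a covariate, the fit for IL-4 against control reduces to IL-4 #1 against the 3 controls, and that for IL-6 against IL-4 to the IL-6 libraries against IL-4 #2 and #3, with the spread taken from all groups. Its values for IL-6 against control rest on IL-4 #1 against IL-4 #2 and #3. IL-4 #3 stood apart in scale, with a median ratio to the geometric mean of all libraries of 0.766, against 0.990 to 1.07 for the others.

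Values are FPKM (fragments per kilobase of exon and per 1000000 fragments of the library), which allow levels of different genes to be compared. Lyz2 was the most abundant member in every library and ranked first of all genes in the 3 IL-6 libraries, second in the controls, and seventh or eighth in the IL-4 libraries. In control Mϕs the mean levels followed the order Lyz2 (14577 ± 1289 FPKM, SD, n = 3), Ngp (793 ± 189), Ltf (225 ± 53.5), Camp (169 ± 53.5), Elane (65.8 ± 29.0), Mpo (34.9 ± 13.1), Lyz1 (29.2 ± 3.21), Prtn3 (20.5 ± 8.35) and Ctsg (17.5 ± 6.31). Lyz2, Ngp and the pair of Ltf and Camp were set apart by gaps between their ranges. Ltf and Camp overlapped each other, and from Elane downward each gene overlapped the next. Control #1 was the lowest control for all 9 members and control #2 the highest.

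**Figure D1:**
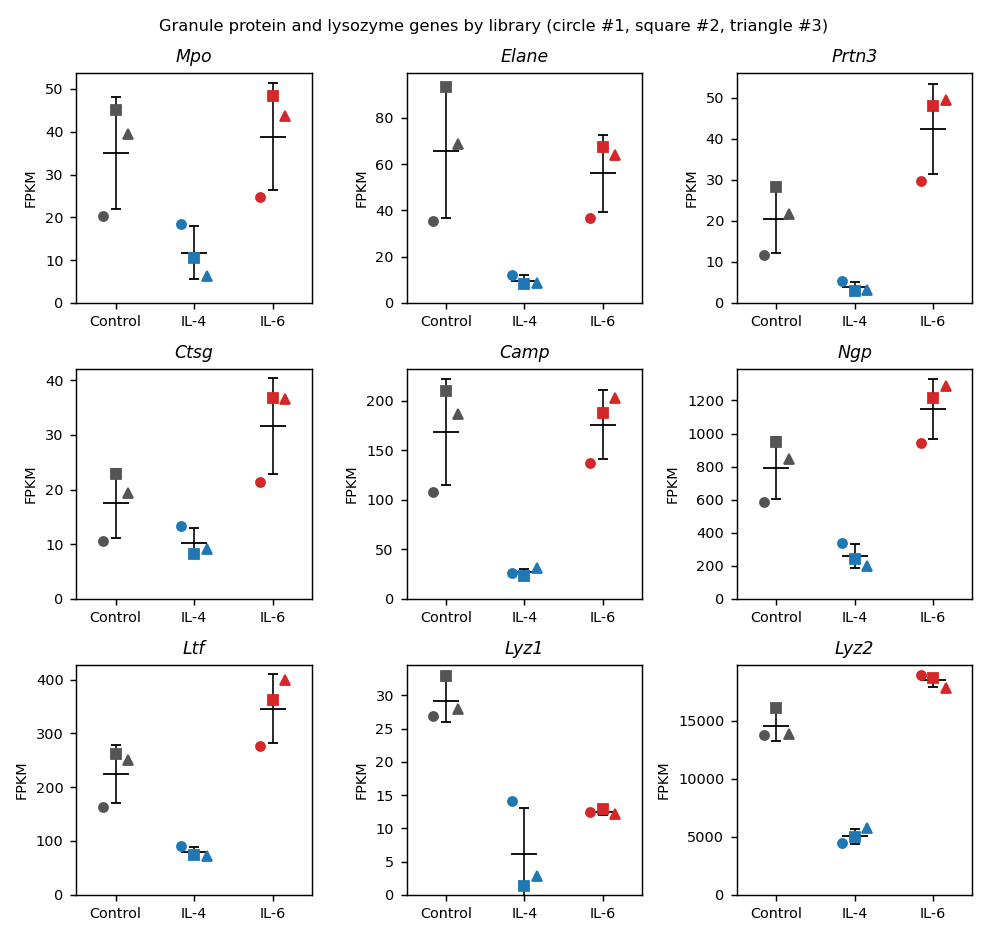
Level of each member (FPKM, linear axis from 0) in the 3 libraries of each condition. Points are libraries, the horizontal bar is the mean and the error bar the SD (n = 3, ended at 0 for Lyz1 in IL-4 Mϕs, where the SD of 7.02 exceeds the mean of 6.07). The IL-4 libraries lie below all controls in 8 of the 9 panels, Ctsg being the exception.

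IL-4 lowered 8 of the 9 members, and the remaining one, Ctsg, did not pass. A gene was called when its adjusted p from limma was under 0.05 and its log2 fold change, on the log2(FPKM + 0.1) scale, was at least 1 in size. By this rule 13.9% of the 12824 genes tested were called with IL-4, 8.89% lower and 5.02% higher. The IL-4 and control libraries of the same 8 members did not overlap, which was true in this direction for 26.8% of all genes. The median log2 fold change of the members was −1.63, beside −0.20 over all genes. An exact permutation test of 3 libraries against 3 cannot give a p under 0.1, and gave 0.1 for each of the 8.

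Among the azurophil genes, Elane, which encodes neutrophil elastase, moved most. It stood at 35.4, 93.3 and 68.8 FPKM in controls #1 to #3 and at 12.2, 8.05 and 8.40 FPKM in the IL-4 libraries. Every IL-4 library was thus under the lowest control, and Elane fell by 2.69 on the log2 scale (SE 0.381, adjusted p = 0.00153). Prtn3, the gene of proteinase 3, was at 11.6, 28.1 and 21.7 FPKM in controls and at 5.30, 2.88 and 3.07 FPKM with IL-4. It fell by 2.38 (SE 0.377, adjusted p = 0.00271), and again no library overlapped.

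Mpo encodes myeloperoxidase, which makes hypochlorous acid from hydrogen peroxide and chloride. Its levels were 20.2, 45.2 and 39.4 FPKM in controls and 18.4, 10.5 and 6.24 FPKM with IL-4, so IL-4 #1 lay just under control #1. The fall of 1.62 (SE 0.460) had an adjusted p of 0.0345, which rose to 0.0587 with the replicate number as a block and to 0.444 with IL-4 #1 alone set against the controls. Mpo was the least secure of the 8 calls: leaving out single libraries, it passed in 3 of 9 fits. Ctsg, the gene of cathepsin G, went from 10.5, 22.8 and 19.3 FPKM to 13.3, 8.11 and 9.14 FPKM. Here IL-4 #1 lay above control #1, and the log2 fold change was −0.74 (95% confidence interval −1.52 to 0.05, adjusted p = 0.159).

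All 3 specific granule genes fell with IL-4. Camp, the precursor of cathelicidin, was at 108, 210.3 and 187 FPKM in controls and at 26.2, 23.1 and 30.7 FPKM with IL-4. It fell by 2.61 (SE 0.268, adjusted p = 0.000296), with levels that lay close together in the treated libraries. Ngp, which encodes neutrophilic granule protein, a cystatin-like protein, was the most abundant of the 7 granule members in each condition. Its levels were 584, 951 and 845 FPKM in controls and 340, 238 and 196 FPKM with IL-4, a fall of 1.63 (SE 0.259, adjusted p = 0.00279). Ltf, the gene of the iron-binding lactoferrin, went from 163, 261 and 249.7 FPKM to 90.8, 74.2 and 72.2 FPKM and fell by 1.48 (SE 0.221, adjusted p = 0.00201). No IL-4 library reached a control library for any of the 3 genes.

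Lyz2 had the smallest standard error of the members. Its levels were 13786, 16064 and 13879.9 FPKM in controls and 4479, 4946 and 5734 FPKM with IL-4, which is 1.81 to 2.11% of all fragments in controls and 0.589 to 0.755% with IL-4. It fell by 1.53 (SE 0.146, adjusted p = 0.000191), to 34.7% of the control mean. Lyz1 was at 26.8, 32.8 and 27.9 FPKM in controls, at 14.1 FPKM in IL-4 #1 and at 1.31 and 2.78 FPKM in IL-4 #2 and #3. The fall of 2.92 (SE 0.700, adjusted p = 0.0177) hence came from libraries that differed among themselves by more than any other member did.

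IL-4 #1, the one treated library that held intestinal transcripts like the controls, was under all 3 controls for 8 of the 9 members. It lay from 1.90-fold under the control mean in Mpo to 6.44-fold in Camp. The share of all genes for which this library was under all controls was not counted. With library set as a covariate, the fit compares this single library with the controls and assumes that it varies like the others. Its log2 fold changes were −2.63 in Camp, −2.31 in Elane, −1.84 in Prtn3, −1.27 in Ltf, −1.19 in Ngp, −0.84 in Mpo and −0.33 in Ctsg. Lyz2 was 3.25-fold and Lyz1 2.07-fold under the control mean in this library. Fewer members passed than without the covariate, and a single library cannot show the spread among treated cultures.

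**Figure D2:**
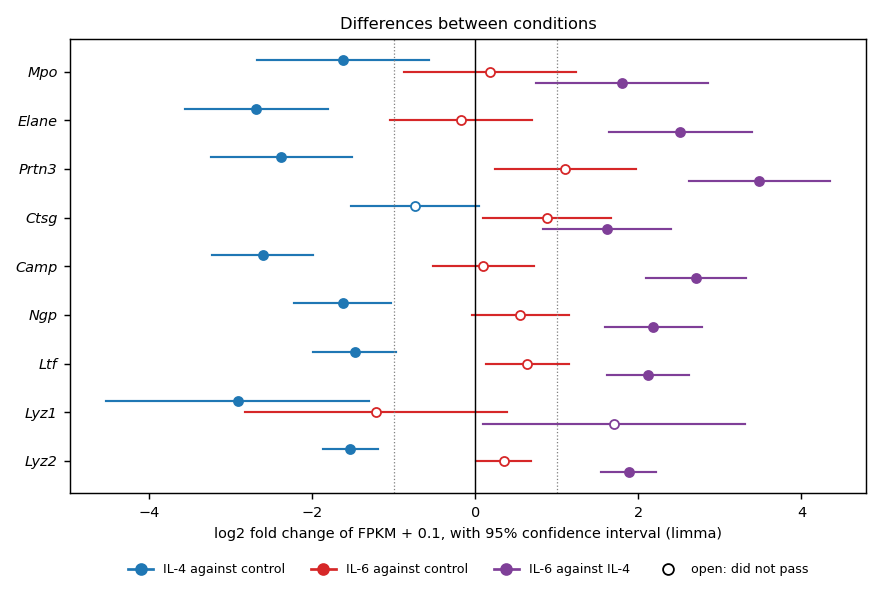
Log2 fold change of each member with its 95% confidence interval (limma, log2(FPKM + 0.1), 9 libraries), in 3 comparisons. Filled points passed the threshold and dotted lines mark a change of 1 in either direction. IL-4 against control is filled on the left for 8 members, IL-6 against control is open for all 9, and IL-6 against IL-4 is filled on the right for 8.

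IL-6 changed no member past the threshold, against 5.38% of all genes called in either direction (3.49% higher and 1.89% lower). The count was 0 of 9 in limma and 0 of 9 in limma voom on the recovered fragments, and 4 of 9 had an unadjusted p under 0.05 (Prtn3, Ctsg, Ltf and Lyz2, all with higher values in IL-6 Mϕs), as had 21.3% of all genes. The median log2 fold change was 0.35 over the members and −0.00 over all genes, with 7 positive and 2 negative values. In Prtn3, Ltf and Lyz2 every IL-6 library was above every control, which was true of 20% of all genes, and in Lyz1 every IL-6 library was below, as in 23.2%.

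The largest of these differences was in Prtn3, at 29.7, 48.1 and 49.4 FPKM with IL-6 (log2 fold change 1.10, SE 0.377, adjusted p = 0.131). Ctsg was at 21.4, 36.7 and 36.6 FPKM, and its log2 fold change was 0.88 (SE 0.343, adjusted p = 0.188). Both had control #2 close to or above IL-6 #1. By contrast Elane, the neighbour of Prtn3, was at 36.8, 67.2 and 63.8 FPKM, inside the control range, with a log2 fold change of −0.18 (95% confidence interval −1.05 to 0.70). Mpo, at 24.7, 48.3 and 43.6 FPKM, likewise overlapped the controls (0.18, interval −0.88 to 1.23).

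Specific granule genes followed no single course with IL-6. Camp, at 137, 187 and 203 FPKM, lay within the control range (log2 fold change 0.10, interval −0.52 to 0.71). Ltf, at 276, 362 and 399.9 FPKM, was above all controls (0.64, SE 0.221, adjusted p = 0.137). Ngp, at 945, 1216 and 1289.6 FPKM, was above them except for control #2, which at 951 FPKM exceeded IL-6 #1 (0.55, SE 0.259, adjusted p = 0.275). The intervals for these genes leave room for changes of up to 0.71, 1.14 and 1.15. No member passed with library set as a covariate either, and the log2 fold changes were 1.92 in Prtn3, 1.49 in Ctsg, 1.35 in Mpo, 1.21 in Ngp, 0.95 in Ltf, 0.39 in Elane, 0.10 in Lyz2 and 0.07 in Camp.

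Lyz2 was at 18963.5, 18649 and 17852 FPKM with IL-6, all above the highest control, at 1.27 times the control mean (log2 fold change 0.35, SE 0.146, adjusted p = 0.221). Its share of fragments was 2.35 to 2.496%. Lyz1 was at 12.4, 12.9 and 12.1 FPKM, below every control, and its log2 fold change was −1.22 (SE 0.700, adjusted p = 0.387). The wide error came from the IL-4 libraries that shared the estimate of spread: with only the control and IL-6 libraries in the fit the adjusted p was 0.000462, and without IL-4 #1 it was 0.0263. With library set as a covariate the value was 1.61 (adjusted p = 0.149), an estimate that turns on how far IL-4 #1 lay from IL-4 #2 and #3. Lyz1 against the intestinal genes of each library is described further on.

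Set against each other directly, IL-6 and IL-4 Mϕs differed in 8 of 9 members, all higher with IL-6. Of all genes, 20.4% were called in this comparison, 13.6% higher and 6.82% lower. The IL-6 libraries lay above all IL-4 libraries for the same 8, as did 36.3% of all genes, and the median log2 fold change was 2.12 beside 0.22. These values share the IL-4 libraries with the first comparison and the IL-6 libraries with the second. Prtn3 had the widest gap, 11.3 times the IL-4 mean (log2 fold change 3.48, SE 0.377, adjusted p = 0.000273). Camp (2.71), Elane (2.51), Ngp (2.18), Ltf (2.12), Lyz2 (1.88), Mpo (1.80) and Ctsg (1.61) followed on the log2 scale, each called. Ctsg thus differed between the cytokines (adjusted p = 0.00816), while neither cytokine passed against control.

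Only Lyz1 was not called between IL-6 and IL-4 (1.70, SE 0.700, adjusted p = 0.0920), and IL-4 #1 exceeded all 3 IL-6 libraries. Without that library its difference was 2.64 with an adjusted p of 0.000524. Within the 5 libraries free of intestinal transcripts, every IL-6 library was above IL-4 #2 and #3 for all 9 members. The ratios of means ran from 3.46 in Lyz2 to 14.3 in Prtn3. The share of all genes for which this held was not counted, and so few libraries separate easily, so the count is not particular to the members.

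Members of one granule class did not move in step, which ratios of FPKM within a library show free of the library's scale. Elane was 3.37 to 4.10 times Ctsg in controls, 0.919 to 0.992 times in IL-4 Mϕs and 1.72 to 1.83 times in IL-6 Mϕs, so the 3 conditions were apart with small spread inside each. Prtn3 to Ctsg gave 1.10 to 1.24 in controls, 0.335 to 0.400 with IL-4 and 1.31 to 1.39 with IL-6. The neighbours Elane and Prtn3 kept a ratio of 3.06 to 3.31 in controls and 2.30 to 2.80 with IL-4, and of 1.24 to 1.40 with IL-6. Mpo spread more among the IL-4 libraries, at 0.484 to 0.573 times Elane in controls, 0.742 to 1.51 times with IL-4 and 0.671 to 0.719 times with IL-6, and at 1.92 to 2.05, 0.682 to 1.39 and 1.15 to 1.32 times Ctsg. Mpo to Prtn3 was 1.61 to 1.81, 2.03 to 3.66 and 0.831 to 1.00. These ratios were examined after the levels were known and are given without a test.

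Among the specific granule genes, Ngp to Ltf was 3.38 to 3.64 in controls, 2.71 to 3.74 with IL-4 and 3.23 to 3.42 with IL-6, so that all 3 conditions overlapped. Camp to Ltf was 0.663 to 0.806 in controls, 0.288 to 0.425 with IL-4 and 0.497 to 0.517 with IL-6. Camp to Ngp was 0.185 to 0.221, 0.0769 to 0.157 and 0.145 to 0.158. Camp was thus lower relative to both other genes with either cytokine.

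**Figure D3:**
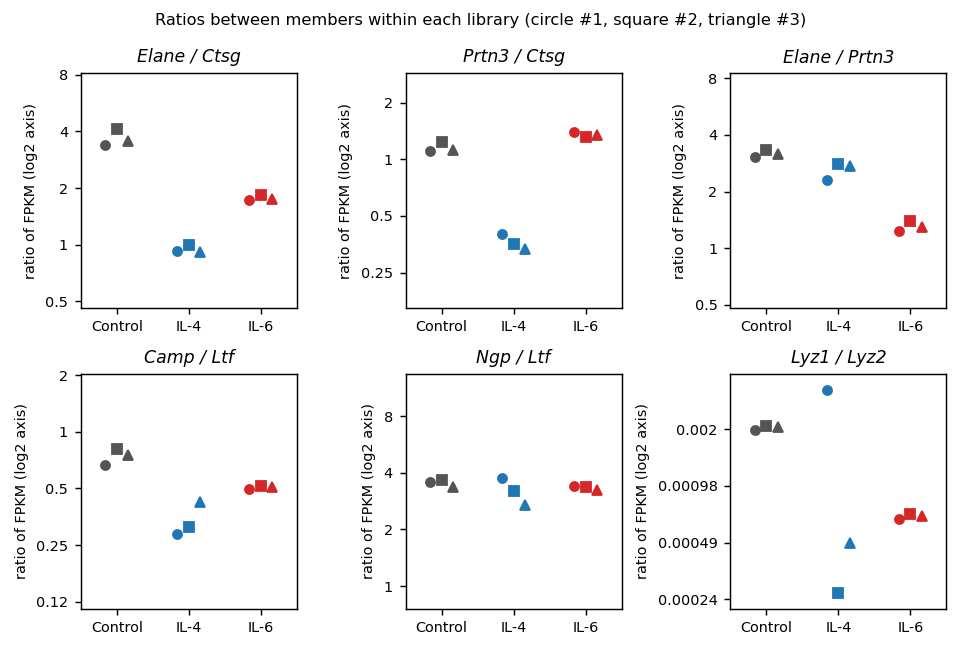
Ratio of FPKM between 2 members in the same library, on a log2 axis of equal span in each panel (points are libraries). Elane to Ctsg and Elane to Prtn3 separate the conditions, Ngp to Ltf does not, and Lyz1 to Lyz2 runs from 0.000264 to 0.00315 within the IL-4 libraries alone.

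Lyz1 and Lyz2 did not keep a ratio either. Lyz1 was 0.00195 to 0.00204 times Lyz2 in controls and 0.000655 to 0.000692 times with IL-6, but 0.000264 to 0.00315 times with IL-4. The summed genes of the Paneth and goblet cell list (18 genes, of which 8 passed the filter on low values) were at 33.5 to 43.4 FPM (fragments per 1000000 fragments) in controls, 29.6 in IL-4 #1, 0.0990 and 0.125 in IL-4 #2 and #3, and 0.163 to 0.245 with IL-6. The 4 libraries with the highest Lyz1 were the same 4 that held these transcripts, and in the 5 others Lyz1 was still at 1.31 to 12.9 FPKM. How much of Lyz1 came with the intestinal transcripts was not tested.

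**Figure D4:**
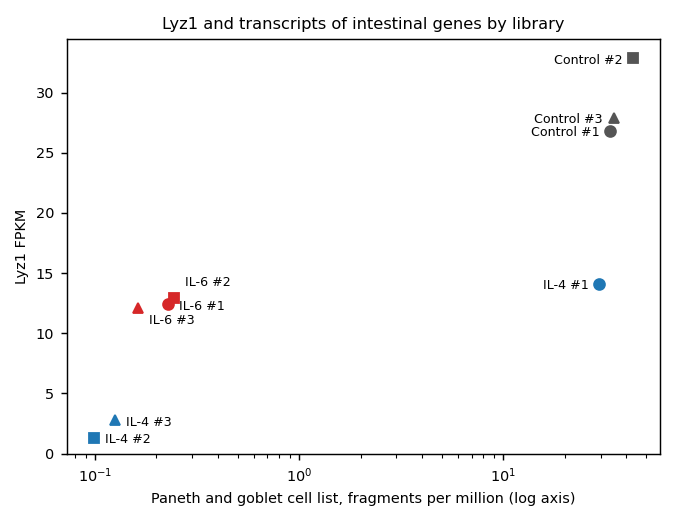
Lyz1 (FPKM, linear axis) against the summed FPM of the Paneth and goblet cell list (log axis), 1 point per library. The 3 controls and IL-4 #1 stand at the right with the highest Lyz1 values. Among the 5 libraries at the left, those with IL-6 have 12.1 to 12.9 FPKM and those with IL-4 have 1.31 and 2.78.

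Other genes of the same granules were read from lists. Of 10 further azurophil or promyelocyte genes, 9 passed the filter. With IL-4, 1 rose (Srgn, the proteoglycan serglycin that packs granule proteases, 1.52 on the log2 scale, adjusted p = 4.71e-05) and 1 fell (Prss57, a further serine protease of this granule, −1.61, adjusted p = 0.0227). With IL-6, 3 rose: Ctsc, the cathepsin C that activates the serine proteases (2.23, adjusted p = 0.00475), Plac8 (1.34, adjusted p = 0.0165) and Srgn (1.26, adjusted p = 0.000425). Ctsc went from 42.5 ± 3.85 FPKM in controls to 199 ± 15.1 FPKM with IL-6 (SD, n = 3). The serine protease members Elane, Ctsg and Prtn3 did not pass, with log2 fold changes of −0.18, 0.88 and 1.10. Under the covariate for library set, 1 rose and none fell with IL-4, and 2 rose with IL-6. In the direct comparison 5 were higher with IL-6. The median of the list was −0.69 with IL-4 and 0.55 with IL-6.

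Of 16 further specific and gelatinase granule genes, 15 passed the filter, and 11 fell with IL-4 while 1 rose. Among those that fell were Fcnb, the gene of ficolin-B (−4.89, adjusted p = 3.58e-05), and Lrg1 (−2.13, adjusted p = 0.000736). The one that rose was Chil3, a chitinase-like protein that Mϕs also make in response to IL-4, at 334.6 ± 78.1 FPKM in controls and 15936 ± 1979.7 FPKM with IL-4 (5.59, adjusted p = 2.22e-06). With IL-6, 6 rose and none fell, led by Hp, the gene of haptoglobin (2.72, adjusted p = 0.00127), Lrg1 (1.84, adjusted p = 0.00443) and Slpi, an inhibitor of elastase and cathepsin G (1.83, adjusted p = 0.00903). With library set as a covariate these counts were 6 that fell with IL-4 and 1 that rose with IL-6. In the direct comparison 12 were higher and 1, Chil3, lower with IL-6. The median was −1.41 with IL-4 and 0.91 with IL-6.

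Of the other genes of the lysozyme family, 5 of 8 were listed at 0 in all libraries, and Lyzl4 alone passed the filter. It stood at 1.504 ± 0.284 FPKM in controls and 0.309 ± 0.139 FPKM with IL-6 (−2.01, adjusted p = 0.00422), and did not pass with library set as a covariate. Lyz1 and Lyz2 were therefore the lysozyme genes with appreciable levels.

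Of 10 regulators of granule genes listed, 9 passed the filter, with a median log2 fold change of −0.71 with IL-4 and 0.19 with IL-6. With IL-4, 3 fell: Csf3r, the receptor of G-CSF (−2.11, adjusted p = 0.000426), Fli1 (−1.21, adjusted p = 0.0103) and Myb (−1.04, adjusted p = 0.0215), and with IL-4 #1 alone against the controls 1 did. None passed with IL-6 in limma, and in the direct comparison 4 were higher with IL-6, among them Cebpe, the factor required for specific granules (1.24, adjusted p = 0.00773). Spi1, the gene of PU.1, was at 100.4 to 134 FPKM across all 9 libraries and passed in no comparison.

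Markers of neutrophils were read from a list of their own. In these bulk cultures, fewer cells of a type and less RNA per cell cannot be told apart. All 11 genes of the neutrophil list, of which Csf3r, Mmp8 and Cd177 are also in the lists above, passed the filter and none was at 0 throughout. With IL-4, 7 fell and none rose, including Csf3r, Retnlg (−1.98, adjusted p = 0.0285) and S100a8 (−1.45, adjusted p = 0.0136), and 2 fell with library set as a covariate. With IL-6, 4 rose, led by the stefins Stfa3 (5.91, adjusted p = 0.000537) and Stfa2l1 (2.06, adjusted p = 0.0241) and the collagenase Mmp8 (1.38, adjusted p = 0.0112), and 1 rose with library set as a covariate. The other 7 were not called with IL-6. Among them, the mean of Retnlg was lower than in controls (152 against 284 FPKM) and that of Cxcr2 was nearly equal (13.2 against 12.8). Ly6g, the defining surface marker, was low, at 4.44 to 8.14 FPKM in controls, 2.24 to 4.97 with IL-4 and 5.66 to 10.4 with IL-6.

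Fragments could be recovered for 9 of the 11 neutrophil genes. Their sum came to 2911 to 4585 FPM in controls, 1251 to 2218 with IL-4 and 4817 to 6310 with IL-6. The 3 specific granule members together were 0.459 to 0.493 of that sum in all 6 control and IL-6 libraries. In IL-4 #1, #2 and #3 they were 0.578, 0.451 and 0.231 of it. The azurophil members were 0.0464 to 0.0695 of the sum in controls, 0.0403 to 0.0573 with IL-6, and 0.0756, 0.0458 and 0.02001 with IL-4. Specific granule transcripts thus kept a nearly fixed proportion to this sum in control and IL-6 libraries. S100a9 and S100a8 had the highest FPKM of the listed markers (control means of 3973 and 1649). Single markers did not all keep the proportion. From control to IL-6 Mϕs the mean went from 284 to 152 FPKM in Retnlg and from 0.0540 to 8.30 FPKM in Stfa3. With IL-4 the proportion scattered, from a higher one in IL-4 #1 to a lower one in IL-4 #3. The part of neutrophils or their precursors in these results was not tested.

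**Figure D5:**
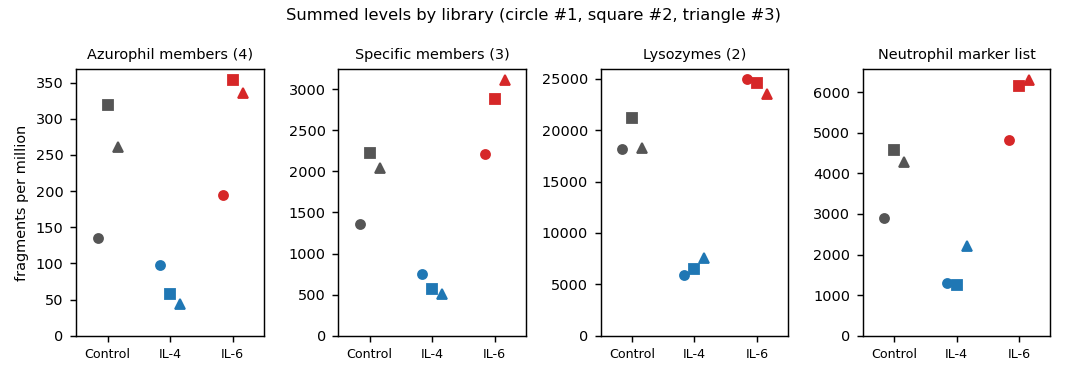
Summed FPM of the 4 azurophil members, the 3 specific granule members, the 2 lysozymes and 9 of the 11 neutrophil markers, by library (linear axes from 0). In each panel the 3 IL-4 libraries lie lowest, and control #1 is the lowest control.

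Other cell types were read in the same way. The myeloid progenitor list (6 of 9 genes passed) was at 41.7 to 54.4 FPM in controls, 22.6 to 37.4 with IL-4 and 52.7 to 73.6 with IL-6. With IL-4 1 of its genes rose and 3 fell, and with IL-6 1 rose. Cd34 was the one that rose with IL-6 (2.45, adjusted p = 0.00403), while Kit and Prss57 fell with IL-4 (−1.35, adjusted p = 0.0410, and −1.61). None of this list passed against control with library set as a covariate. The Mϕ markers were all above the filter (10 of 10), but only 7 of them had recovered fragments. The sum over these 7 was 5596 to 6324 FPM in controls, 9511 to 10649 with IL-4 and 6184 to 6637 with IL-6. It leaves out the other markers and does not describe the list as a whole. Adgre1, a surface marker of mature Mϕs, was at 393 to 523 FPKM in controls, 106 to 254 with IL-4 and 383 to 427 with IL-6, while Ctss, a lysosomal protease, was at 1958 to 2317, 5317 to 5399.8 and 2426 to 2774 FPKM. Of all 10 markers, 2 rose and 5 fell with IL-4, the latter led by Cd14 (−2.53, adjusted p = 0.000366), Aif1 (−2.45, adjusted p = 0.000180) and Fcgr1 (−1.83, adjusted p = 6.39e-05). Cd14 rose with IL-6 (1.27, adjusted p = 0.0262). Under the covariate for library set, 2 rose and 3 fell with IL-4, and none passed with IL-6.

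The genes whose profile over the 9 libraries was most like each member were sought among the other genes tested, by Pearson's r of log2(FPKM + 0.1). Prtn3 and Ltf were among each other's nearest 3 (r = 0.997), and Ngp was closest to Prtn3 (r = 0.993). Trem3 was among the nearest 3 of Prtn3, Ltf and Ngp. Ctsg was closest to Ms4a3 (r = 0.977), a marker of granulocyte and monocyte precursors. The nearest gene was Tcn2 for Camp (r = 0.996), Cd82 for Lyz2 (r = 0.996), Gapt for Mpo (r = 0.995), Shisa5 for Elane (r = 0.996) and Ei24 for Lyz1 (r = 0.959). The 9 libraries fall into 3 conditions, so these values describe mainly the order of the conditions.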

How the data were processed

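RNA of 9 libraries was measured by stranded sequencing of polyadenylated RNA. The authors deposited 1 table of FPKM. The paper's methods and the submitters' processing notes name STAR 2.4.2a, GRCm38 and Cufflinks 2.2.1, and filters are not stated. Of the 53379 identifiers, 94.8% matched GENCODE M21 with their version. From exon lengths, 100.0% of the low values examined were whole fragments within 0.05, which gave each library's depth. Confidence intervals are limma's and cover the spread between libraries. No floor of fragments entered the fit, and reads carried no molecular identifiers. Whole-fragment steps are not what Cufflinks usually writes, so the program that made the table is not settled.

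FPKM were fitted as log2(FPKM + 0.1) for the 12824 genes with a mean of at least 0.5 FPKM, with 3 groups in one limma 3.58.1 model in R 4.3.3 (eBayes with trend and robust options, Benjamini-Hochberg adjustment over all genes tested). All adjusted p-values are from this test unless an alternative is named. Single genes also had a two-sided exact permutation test. The alternatives were pseudocounts of 1 and 0.01, no filter or a mean of 5 FPKM, median-ratio and quantile scaling, only the groups compared, the replicate number as a block, library set as a covariate (20 or more fragments of the intestinal list), limma voom on recovered fragments, each library left out and, chosen after seeing the data, removal of trends on gene length and GC content. The code was tested on simulated data. Named genes were all members and, from each list, up to 3 called genes per comparison with the largest change among those whose libraries did not overlap. Values of Ly6g, Adgre1, Ctss, Spi1 and Tpsb2 were added after the values were seen. The members and lists were chosen with earlier results of these data known. Lists of enterocyte and skeletal muscle genes were also read: no enterocyte gene of 10 passed the filter, and of 15 muscle genes 4 did. Tnni2 fell with IL-4 and IL-6, and the other 3 were not called. These were lower in the controls and IL-4 #1 than in the remaining libraries, as the intestinal transcripts divided them. Acta1 was at 0.223 to 0.578 against 1.61 to 3.31 FPKM, Mylpf at 0.378 to 0.778 against 2.21 to 5.48, and Tnnt3 at 0.148 to 0.295 against 0.728 to 1.20.

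Whether replicate numbers pair the libraries was checked from the correlation of same-numbered deviations from the group means. Over #1, #2 and #3, r was 0.408, 0.201 and 0.166 between control and IL-6, above 0.1 in each pair, 0.521, −0.415 and 0.0777 between control and IL-4. Between the cytokines it was 0.281, −0.0612 and 0.153. Tables and plots used Python 3.11.15, pandas 2.3.3 and matplotlib 3.10.9. Coordinates are GRCm38.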

Additional observations from a re-analysis of the deposited data

How the results depend on the processing

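Of the 63 counts of members called under alternatives, 60 stayed within 1.5 times the reported count. The exceptions were 4 for IL-4 with library set as a covariate, and 1 (Lyz1) for IL-6 with only the groups compared or without IL-4 #1. Leaving out each library gave 6 to 8 members for IL-4, 0 to 1 for IL-6 and 7 to 9 for IL-6 against IL-4. Mpo lost its call for IL-4 without control #2 or #3, IL-4 #2 or #3, or IL-6 #2 or #3, and for IL-6 against IL-4 without IL-6 #2 or #3, and Lyz1 lost its call for IL-4 without any one control. The log2 fold change of Lyz1 for IL-6 reversed to 1.61 with that covariate, resting on IL-4 #1 against IL-4 #2 and #3. For IL-6, Mpo, Elane and Camp, whose log2 fold changes were smaller than their standard errors and were given no direction, also changed sign: Elane to 0.39 with that covariate, to 0.13 without control #2 and to 0.10 without IL-6 #1, Mpo to −0.18 without control #1 and Camp to −0.19 without control #1. With the replicate block, members called were 7, 0 and 8 (Mpo was lost for IL-4), and 5 of 9 libraries correlated best with their own number.

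Genes called were 1784 for IL-4, 690 for IL-6 and 2613 for IL-6 against IL-4. They were 847, 306 and 1219 with a mean of at least 5 FPKM, which tests 6559 genes, and 1111 and 187 with library set as a covariate for the first pair. Leaving out each library gave 1450 to 2150, 387 to 1001 and 2124 to 3274. For IL-4 the split of 644 higher and 1140 lower became 834 and 874 after median-ratio scaling and 824 and 849 after quantile scaling, as the median of all genes moved from −0.20 to −0.01 and −0.03, and 747 and 798 without length and GC trends. For IL-6 against IL-4, 1738 and 875 became 1398 and 1165, 1305 and 1260, and 1184 and 1098. All 8 members called lower with IL-4 were still called lower under these 3 scalings. The cause of these shifts was not tested.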

Other observations

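Markers of eosinophils, basophils and mast cells, several of them granule genes, were read from a list. Of 11 genes listed, 9 passed the filter, and with IL-4 5 rose and 2 fell. Those that fell were the eosinophil granule genes Prg2, which encodes major basic protein, and its relative Prg3. Prg2 was at 65.1, 154 and 141 FPKM in controls and at 16.4, 12.5 and 14.7 FPKM with IL-4, without overlap (−2.95 on the log2 scale, adjusted p = 0.000408), and Prg3 changed by −2.92 (adjusted p = 0.00118). Both were also lower with IL-6, Prg2 by −2.44 (adjusted p = 0.00323) and Prg3 by −1.77 (adjusted p = 0.0307). No member of the neutrophil granules or lysozymes passed as lower with IL-6. With library set as a covariate none of the list passed as lower with IL-6.

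Gzmb, the gene of the granule protease granzyme B, was listed at 0 in all 3 controls, at 22.0, 14.3 and 7.26 FPKM with IL-4, and at 0.0399 to 0.113 FPKM with IL-6 (IL-6 against IL-4, adjusted p = 1.62e-05). Mcpt8, a basophil protease, was at 1.69 to 5.03 FPKM in controls, 24.4, 13.4 and 18.0 with IL-4 and 0.890 to 4.30 with IL-6. Fcer1a, the IgE-binding chain of the high-affinity receptor, was at 0.517 to 1.29 FPKM in controls, 5.48, 4.36 and 6.08 with IL-4 and 0.259 to 0.921 with IL-6. For IL-6 against IL-4 the log2 fold changes were −2.97 in Mcpt8 (adjusted p = 0.00617) and −3.11 in Fcer1a (adjusted p = 0.000925). The IL-6 values of both overlapped those of the controls. Tpsb2, a mast cell tryptase, was listed at 0 in all 9 libraries. Fragments could be recovered for 10 of the 11 genes listed. Their sum was 70.4 to 155 FPM (fragments per 1000000 fragments) in controls, 66.7 to 118 with IL-4 and 21.6 to 37.7 with IL-6.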
